A study of Mus musculus with 8 samples.

Results

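The CTCF peaks described here are those that were listed in newborn mouse lens epithelium and had no counterpart in lens fiber cells. A peak of the epithelium list on chromosomes 1 to 19 was a member when no peak of the fiber list overlapped it by 1 bp or more. This rule gave 4242 members of 15799 epithelium peaks on these chromosomes, which is 26.8%, and the other 11557 peaks were shared. Both lists together held 40301 peaks over all chromosomes, and 11576 peaks on chromosomes 1 to 19 were in the fiber list alone. The members were chosen by the measured presence of a peak in one list and its absence from the other, so their fold enrichment, significance and distance to fiber peaks are given as a description and were not tested.

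The lens samples came from CD-1 mice, an outbred stock, at postnatal day 0.5. Lenses were microdissected into epithelium and fiber cells, 200 lenses were pooled per CTCF ChIP-seq sample, and the labels give 1 sample per cell type, with 6 µg of chromatin and 5 µl of antibody. Hi-C, which counts contacts between distant DNA segments, was made from 2 replicates of each lens cell type with 30 lenses per replicate. It was also made from 2 replicates of v6.5 ES cells, a male mouse embryonic stem cell line of another, mixed strain background. These cells were grown without feeder cells and with leukemia inhibitory factor. The authors merged the replicates before they called loops and TADs (topologically associated domains). The study's methods describe replicates and a larger amount of chromatin for the ChIP-seq, and how these relate to the single list per cell type is not given in the sources used here. With a single list per cell type, no error between samples can be given. Intervals in brackets are 95% intervals that cover counting error only. The read depth behind the peak lists was not used here, so it is unknown, and a site missing from the fiber list may hold reads there below the peak caller's threshold, which was not tested. The fiber list was the longer, with 23132 peaks on chromosomes 1 to 19.

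CTCF is a zinc-finger protein that binds a well-defined DNA motif. The ring-shaped cohesin complex extrudes DNA into loops and tends to stop where it meets CTCF, so that CTCF is often found at the anchors of loops and at the ends of TADs. The lens epithelium is a single layer of cells over the front of the lens and is the source of the fiber cells behind it, which fill with crystallins and lose their nuclei.

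Sequence was at hand only where a peak lay in a promoter window, taken as 250 bases before to 50 bases after a transcription start in the RefSeq table of GRCm38.p6, the same assembly as the mm10 coordinates of the files. This table covered 18 of the 19 chromosomes and held 31365 windows of 300 bases. A summit in such a window was found for 16 of 4089 members (0.391%, 0.241 to 0.635), beside 275 of 11193 shared peaks (2.46%, 2.19 to 2.76), 662 of 11259 peaks of the fiber list alone (5.88%, 5.46 to 6.33) and 1.90% of all epithelium peaks. The members' share was thus 0.159 times that of the shared peaks (0.0963 to 0.263). The stretch of each peak that lay inside the window was searched on both strands for the CTCF core consensus, a motif of 14 letters, with at most 1 mismatch. A match was found in 7 of the 16 members (43.8%, 23.1 to 66.8), in 61.1% of the 275 shared peaks (55.2 to 66.7), in 24.0% of the 662 fiber-alone peaks (20.9 to 27.4) and in 2.34% of all windows. With at most 1 mismatch, the members' interval overlaps those of both other classes. With at most 2 mismatches, 56.2% of members matched (33.2 to 76.9), against 87.3% of shared peaks (82.8 to 90.7) and 57.4% of fiber-alone peaks (53.6 to 61.1), so that the interval of the members lies under that of the shared peaks and overlaps that of the fiber-alone peaks. The stretches searched had a median of 188 bases in members and 231 in shared peaks, a longer stretch giving more room for a match. When the whole window was searched, 43.8% of members, 62.9% of shared peaks and 24.8% of fiber-alone peaks matched with at most 1 mismatch. With at most 2 mismatches these shares were 56.2%, 89.5% and 60.1%. No member had a match without a mismatch (0%, 0 to 19.4), beside 17.5% of the shared peaks (13.4 to 22.4) and 4.83% of the fiber-alone peaks (3.44 to 6.74). With only 16 members, their interval overlaps those of both other classes. A match describes letters in a window and does not show that CTCF sits there.

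The 6 members with a match among the 10 of highest fold in promoter windows are printed to show where the consensus lies in the peak, from 5′ to 3′ on the strand of the named gene and as RefSeq gives them, with the matching letters in capitals.
Gm41849: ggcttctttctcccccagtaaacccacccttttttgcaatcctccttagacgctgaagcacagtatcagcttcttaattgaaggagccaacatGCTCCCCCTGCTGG
Epha1: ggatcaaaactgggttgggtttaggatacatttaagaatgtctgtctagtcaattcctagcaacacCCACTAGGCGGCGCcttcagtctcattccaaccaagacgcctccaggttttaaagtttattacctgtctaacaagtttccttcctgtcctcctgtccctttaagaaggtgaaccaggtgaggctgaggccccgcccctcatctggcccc
Gm39566: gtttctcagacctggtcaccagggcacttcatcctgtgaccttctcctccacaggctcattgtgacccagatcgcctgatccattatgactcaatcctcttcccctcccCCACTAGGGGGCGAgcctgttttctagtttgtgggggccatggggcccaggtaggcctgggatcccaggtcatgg
Gm40763: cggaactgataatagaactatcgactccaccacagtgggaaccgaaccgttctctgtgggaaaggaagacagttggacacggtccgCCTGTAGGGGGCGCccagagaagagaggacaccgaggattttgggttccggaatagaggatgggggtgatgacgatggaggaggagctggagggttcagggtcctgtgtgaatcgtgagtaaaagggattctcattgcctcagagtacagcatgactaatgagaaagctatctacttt
Gm4868: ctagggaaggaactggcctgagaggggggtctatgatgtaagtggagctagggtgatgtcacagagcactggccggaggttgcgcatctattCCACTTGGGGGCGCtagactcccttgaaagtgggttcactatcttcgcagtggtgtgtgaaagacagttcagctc
2700003A03Rik: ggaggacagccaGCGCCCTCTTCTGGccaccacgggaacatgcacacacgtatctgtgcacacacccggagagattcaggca
The stretches lie at chr19:42444000-42444106 (plus strand) for Gm41849, a predicted gene, chr6:42373304-42373518 (minus strand) for Epha1, an ephrin receptor kinase, and chr11:69815295-69815478 (minus strand) for Gm39566. The others lie at chr10:111636320-111636583 (minus strand) for Gm40763, chr5:125849852-125850018 (minus strand) for Gm4868 and chr1:90272622-90272703 (plus strand) for 2700003A03Rik. Over all 7 matches, the middle of the match lay between 3.50 and 39.5 bp from the peak's summit. The matched letters read along the gene's strand in Epha1, Gm39566, Gm40763 and Gm4868 and against it in Gm41849 and 2700003A03Rik.

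For comparison, the next lines give a member without a match and the pair of shared peaks that had the highest fold among those matching the consensus without a mismatch.
Tdrd12: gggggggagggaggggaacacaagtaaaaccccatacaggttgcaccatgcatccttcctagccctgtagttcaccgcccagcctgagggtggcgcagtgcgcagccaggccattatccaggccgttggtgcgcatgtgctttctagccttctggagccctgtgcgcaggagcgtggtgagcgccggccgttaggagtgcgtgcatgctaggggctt
Sycp2: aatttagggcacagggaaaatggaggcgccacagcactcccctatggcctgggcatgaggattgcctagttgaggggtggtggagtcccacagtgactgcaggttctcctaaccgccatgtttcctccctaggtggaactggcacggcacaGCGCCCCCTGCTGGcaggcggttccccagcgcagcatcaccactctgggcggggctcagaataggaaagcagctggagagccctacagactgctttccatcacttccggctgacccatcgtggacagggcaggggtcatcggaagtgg
Pdzd9: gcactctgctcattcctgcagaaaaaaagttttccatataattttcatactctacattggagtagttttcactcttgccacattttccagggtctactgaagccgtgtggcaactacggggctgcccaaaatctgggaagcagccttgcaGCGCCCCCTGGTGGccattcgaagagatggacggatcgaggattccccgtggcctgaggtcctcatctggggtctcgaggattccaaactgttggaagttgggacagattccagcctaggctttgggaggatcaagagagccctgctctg
The peak at Tdrd12, a germ-cell gene of the piRNA pathway, had a fold of 6.51, and its stretch (chr7:35537666-35537882, minus strand) differed from the consensus by at least 3 letters. The shared peaks at Sycp2, a gene of the synaptonemal complex (chr2:178407609-178407907, minus strand), and at Pdzd9 (chr7:120670201-120670500, minus strand) had folds of 14.3 and 11.3. The folds of the 16 members ran from 4.44 to 6.85 with a median of 5.54, and the 275 shared peaks in promoter windows had a median of 6.11. Nearly all members, like most peaks of the other classes, lay outside promoter windows and could not be searched.

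The members had a lower enrichment than the shared peaks of their list. The fold, which is the peak caller's linear ratio of reads at the summit over background, had a median of 5.07 in members (5.04 to 5.12), with quartiles of 4.51 and 5.78 and a range of 1.60 to 11.0. Shared peaks of the epithelium list had a median of 6.18 (6.12 to 6.21) and reached 28.4, and peaks of the fiber list alone, which were scaled separately, had a median of 5.68. The distributions overlapped widely, with the members shifted towards low fold. The median −log10 q of members was 5.54, against 9.03 for shared peaks, and their median width was 222 bp against 263 bp.

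**Figure D1:**
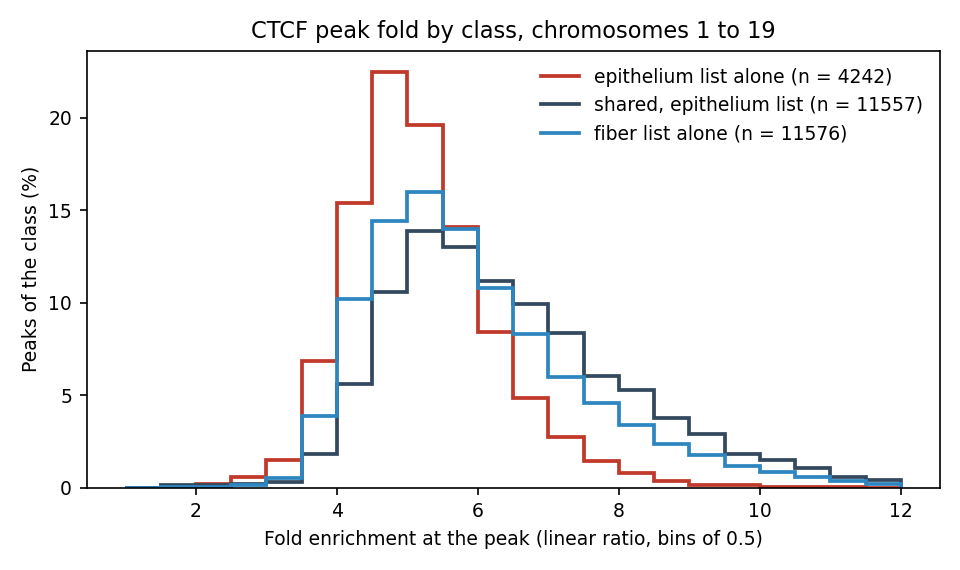
Fold enrichment of CTCF peaks (x axis, linear ratio in bins of 0.5) against the percent of peaks of each class (y axis) for members, shared peaks of the epithelium list and peaks of the fiber list alone. The members' outline peaks at a lower fold than the others, with medians of 5.07, 6.18 and 5.68, and the few shared and fiber peaks above a fold of 12 are not drawn.

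The epithelium list was split into 4 strata of near-equal size by fold. Members were 48.4% of the lowest stratum (1913 of 3950 peaks) and 5.88% of the highest (232 of 3946). The strata between held 33.0% and 20.1% members. On each of the 19 chromosomes the members' median fold was under that of the shared peaks. Members made up between 20.8% of the epithelium peaks (chromosome 19) and 35.2% (chromosome 12, 34.2% without the Igh locus). Igh was the single locus left out. Other stretches of chromosome 12 with many members, such as chr12:18190011-18359079 with 7, were kept, so the high share need not hold along the whole chromosome.

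The distance to the fiber list, which the rule used, ranged widely. The nearest fiber peak was at a median distance of 26.3 kb (25 to 27.8), with quartiles of 9.59 and 65.5 kb, and the farthest was 1401 kb away. Within 1 kb of a fiber peak lay 143 members (3.37%, 2.87 to 3.96), and 71 of these had a peak of the fiber list alone as their nearest. Within 10 kb lay 1098 members (25.9%, 24.6 to 27.2) and within 100 kb 3550 (83.7%, 82.5 to 84.8). Only 14 members (0.330%) had a fiber peak within 0.1 kb. At the edge of the rule, the 3 closest members were 19, 22 and 44 bp from a fiber peak with folds of 4.39, 3.88 and 4.57, and the 3 shared peaks of least overlap, 7, 15 and 23 bp, had folds of 3.98, 4.34 and 5.14.

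**Figure D2:**
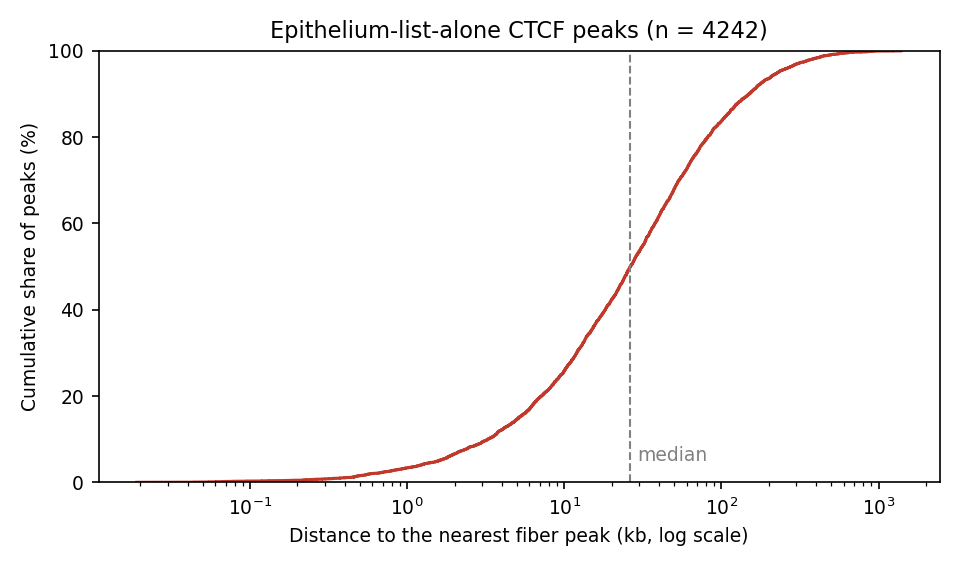
Cumulative percent of the 4242 members (y axis) against the distance to the nearest fiber peak in kb (x axis, log scale), with the median as a dashed line. The curve stands at 25.9% at 10 kb and it reaches 83.7% at 100 kb.

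The spacing of members varied along the chromosomes. The median distance between the summits of a member and of the nearest other member was 156 kb (149 to 165), and 264 members had another member within 10 kb. To the nearest other epithelium peak of any kind it was 38.9 kb (36.7 to 40.9) for members and 31.8 kb (30.9 to 32.9) for shared peaks.

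Members were found at loop anchors less often than shared peaks. An anchor is one of the paired segments, 5 to 25 kb wide, whose contact the HiCCUPS caller lists as a loop. Of the 4242 members, 616 overlapped an anchor of the epithelium loops (14.5%, 13.5 to 15.6), beside 37.6% of shared peaks (36.8 to 38.5), 33.5% of peaks of the fiber list alone (32.7 to 34.4) and 31.4% of all epithelium peaks. The ratio of members to shared peaks was 0.386 (0.357 to 0.417), and the members' share was the lower on 19 of 19 chromosomes. These anchors cover 7.74% of chromosomes 1 to 19, which is below the share of either class. With anchors of 5 and 10 kb only, the shares were 6.25% and 24.0%, a ratio of 0.261 (0.231 to 0.294).

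The difference was present at every level of enrichment. From the lowest to the highest stratum of the list by fold, 14.1%, 14.3%, 16.1% and 14.2% of members were at an epithelium anchor, and 35.6%, 35.9%, 39.1% and 38.8% of shared peaks. Within members, the 616 at an anchor had a median fold of 5.12 (5.01 to 5.23) and the 3626 others 5.07 (5.03 to 5.11), intervals that overlap. In the highest stratum, which holds 232 members, the interval of their share ran from 10.3 to 19.3% and did not reach that of the shared peaks, 37.2 to 40.4%.

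**Figure D3:**
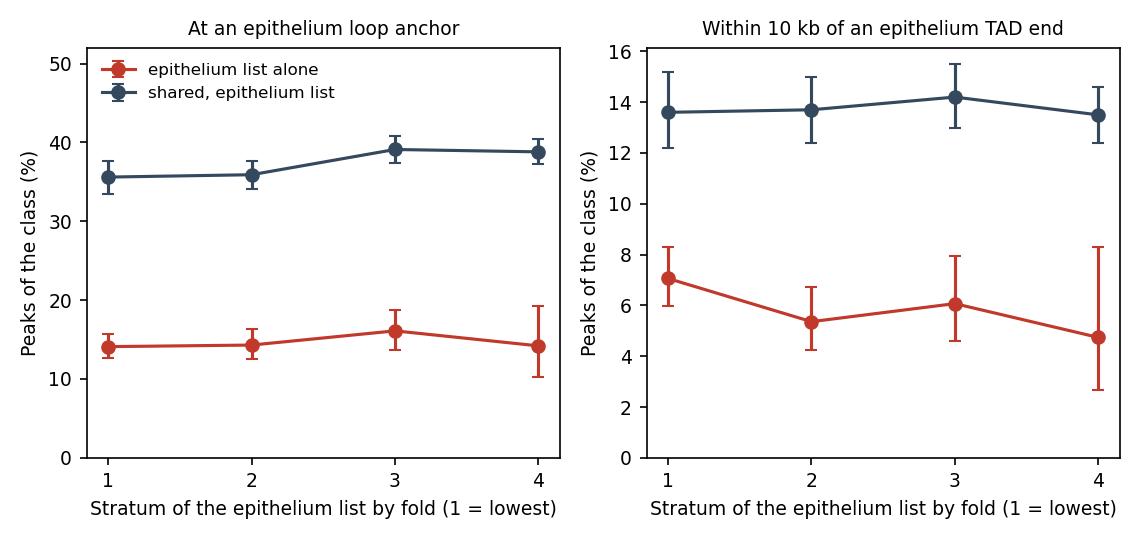
Percent of members and of shared peaks (y axes) at an epithelium loop anchor (left) and within 10 kb of an epithelium TAD end (right) in each stratum of the epithelium list by fold (x axes, 1 is the lowest). Points are shares and lines 95% Wilson intervals. Members stay near 14 to 16% at anchors in all strata while shared peaks stay near 36 to 39%.

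The loops of the other cell types gave like shares. At an anchor of the fiber loops lay 609 members (14.4%, 13.3 to 15.4), beside 37.7% of shared peaks and 31.5% of all epithelium peaks, and at an anchor of the ES cell loops 602 members (14.2%, 13.2 to 15.3), beside 35.9% and 30.0%. So the peaks listed in the epithelium alone were no more frequent at epithelium anchors than at fiber anchors, as the intervals overlap. At an anchor of all 3 loop lists were 197 members (4.64%, 4.05 to 5.32), beside 19.2% of shared peaks (18.5 to 20) and 15.7% of fiber-alone peaks (15.1 to 16.4). An anchor of the epithelium loops and of neither other list held 174 members (4.10%, 3.55 to 4.74), 5.09% of shared peaks (4.70 to 5.50) and 5.73% of fiber-alone peaks (5.32 to 6.17). At no anchor of any list lay 73.8% of members (72.5 to 75.1) and 44.8% of shared peaks (43.9 to 45.7).

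Members at an epithelium anchor lay there both with and without another CTCF peak. Of the 616, 184 lay in an anchor that also held a shared peak, 143 lay with a peak of the fiber list alone and no shared peak, and 289 lay with neither. Counted by anchors, 312 of 14078 held a member as their single kind of lens CTCF peak. Over all 14078 anchors, 4756 held a shared peak, 4185 held a peak of the fiber list alone, with or without others, and 5589 held no lens peak. Other peaks were thus common at anchors in general, and their presence beside members is not read as a trait of members. Members at both anchors were rare, in 21 of 7840 epithelium loops (0.268%), while 738 loops (9.41%) had a member at an anchor.

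Loops were set side by side by the peaks at their anchors, and a loop was matched in another list when the midpoints of both anchors lay within 10 kb of those of a listed loop. Of the 299 loops with a member and no shared peak, which may also hold a peak of the fiber list alone, 48.2% were matched in the fiber list (42.6 to 53.8). The share was 59.9% in the 4020 loops with a shared peak and no member (58.4 to 61.4). It was 44.4% in the 1316 loops with no lens CTCF peak (41.7 to 47.1). Over all 7840 epithelium loops 55.8% were matched (54.7 to 56.9). In the 1766 loops with peaks of the fiber list alone and no epithelium peak, the share was 56.9% (54.5 to 59.1). The share of the first group lay under that of the loops with a shared peak, and over all widths its interval overlaps that of the loops without a peak. The share also moved with anchor width. Among loops with anchors of 10 kb, 63.6% of those with a member and no shared peak (54.1 to 72.1) and 65.3% of those with a shared peak (62.9 to 67.6) were matched, and with anchors of 25 kb 31.6% (24.9 to 39.3) and 43.9% (41.6 to 46.3). Between these groups the intervals overlap at 10 kb and do not at 25 kb. Loops with no lens CTCF peak were matched in 44.2% of cases at 10 kb (40.3 to 48.2), under the interval of those with a member, and in 25.8% at 25 kb (21.6 to 30.4), which overlaps it. At 5 kb the shares were 76.5% (60 to 87.6), 85.7% (83.0 to 88.1) and 65.4% (60.2 to 70.3), in the same order of groups. The median ratio of observed to expected contacts was 2.75 (2.63 to 2.90) for the loops with a member and no shared peak, 3.08 (3.04 to 3.12) for those with a shared peak and no member and 3.06 (2.99 to 3.16) for those with no lens CTCF peak. The median observed contacts, in the same order of groups, were 62.0 (57.0 to 67.0), 53.0 (52 to 55) and 42.0 (40.0 to 44.0). The loops with a member and no shared peak thus had the lowest ratio and the highest count. Anchor widths were not separated for these medians.

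TAD ends gave the same order as anchors. Within 10 kb of an end of an epithelium TAD lay 264 members (6.22%, 5.54 to 6.99), beside 13.7% of shared peaks (13.1 to 14.4), 11.6% of peaks of the fiber list alone (11.0 to 12.2) and 11.7% of all epithelium peaks. The ratio of members to shared peaks was 0.453 (0.400 to 0.513), and the members' share was lower on all 19 chromosomes. The 10 kb windows cover 2.86% of these chromosomes. Over the 4 strata of fold the members' share was 7.06, 5.36, 6.07 and 4.74%, and that of shared peaks between 13.5 and 14.2%. Ends of fiber TADs held 8.32% of members and 19.6% of shared peaks (16.6% of all epithelium peaks), and ends of ES cell TADs 11.8% and 22.9% (19.9% of all).

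Inside the TADs of the lens cell types, away from the question of ends, the classes differed little. In an epithelium TAD lay 27.4% of members (26.1 to 28.8), 26.5% of shared peaks (25.7 to 27.3) and 26.7% of all epithelium peaks, a ratio of 1.03 (0.977 to 1.10), and these TADs cover 24.4% of the chromosomes. In fiber TADs lay 34.0% of members, 33.0% of shared peaks and 33.2% of all epithelium peaks. In ES cell TADs the members' share was somewhat lower, at 37.4% (36.0 to 38.9), beside 40.8% of shared peaks (39.9 to 41.7) and 39.9% of all epithelium peaks. The ratio to shared peaks there was 0.919 (0.878 to 0.961), and the members' share was the lower on 14 of 19 chromosomes. The median distance to the nearest epithelium anchor was 41.8 kb for members (38.9 to 44.4) and 8.36 kb for shared peaks (7.46 to 9.32), and to the nearest epithelium TAD end 223 kb (208 to 238) and 143 kb (137 to 150).

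**Figure D4:**
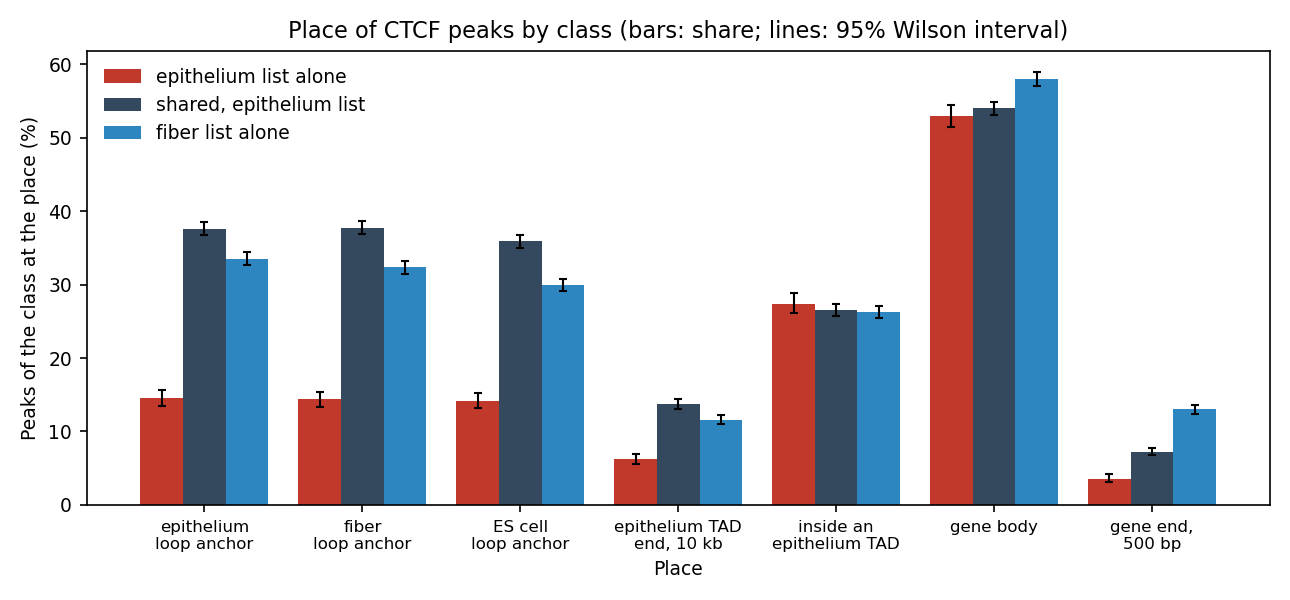
Percent of peaks of each class (y axis) at loop anchors of the 3 cell types, at and in epithelium TADs, in gene bodies and near gene ends (x axis). Bars are shares on chromosomes 1 to 19 and lines 95% Wilson intervals. Members stand under both other classes at anchors, TAD ends and gene ends, at 14.5, 6.22 and 3.58% for the epithelium anchors, epithelium TAD ends and gene ends. They stand near the shared peaks inside epithelium TADs and in gene bodies.

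Genes were taken from the RefSeq table of GRCm38.p6, with a gene body of at least 1 kb. A summit in a gene body was found for 53.0% of members (51.5 to 54.5), 54.0% of shared peaks (53.1 to 54.9) and 53.7% of all epithelium peaks, a ratio of 0.983 (0.951 to 1.02). Gene bodies cover 48.1% of the chromosomes. Near the ends of genes the members were fewer, with 152 whose summit was within 500 bp of either end of a gene (3.58%, 3.06 to 4.19), beside 7.21% of shared peaks (6.75 to 7.69), 13.0% of peaks of the fiber list alone (12.4 to 13.6) and 6.23% of all epithelium peaks. The ratio to shared peaks was 0.497 (0.420 to 0.589) and that to peaks of the fiber list alone 0.276 (0.234 to 0.325), and the share was below that of shared peaks on 19 of 19 chromosomes. The median distance to a transcription start was 28.4 kb for members (27.2 to 30.1), 20.5 kb for shared peaks (19.8 to 21.1) and 18.5 kb for peaks of the fiber list alone (17.8 to 19.1). Within 10 kb of a transcription start lay 23.6% of members (22.3 to 24.9), 31.0% of shared peaks (30.1 to 31.9) and 29.0% of all epithelium peaks. So members had a like share within genes to shared peaks and lay farther from transcription starts.

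Of the 20 members of highest fold, 9 had their summit in a gene body, 3 were at an epithelium anchor and 5 had a fiber peak within 10 kb, beside 53.0%, 14.5% and 25.9% of all members. The highest was at chr7:133323989-133324278, with a fold of 11.0 and −log10 q of 22.7, and its nearest gene was the long noncoding RNA Gm35567 at 103 kb and its nearest fiber peak at 114 kb. The second, at chr3:143988107-143988431, had a fold of 10.8 and lay 0.626 kb from the noncoding RNA Gm33988. The third lay in the body of Pde9a, which encodes a phosphodiesterase that breaks down cyclic GMP, with a fold of 10.6 (chr17:31429468-31429778) and 51.2 kb from a fiber peak. None of these 3 was at an anchor of any loop list.

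Further members of high fold lay in Lsamp, a cell adhesion protein of the limbic system (fold 10.4), Kcnab1, a subunit of voltage-gated potassium channels (9.31), and Kcnip1, a protein that binds such channels (9.04). Foxp2, a forkhead transcription factor, held a member of fold 9.55 at chr6:15181342-15181691, which was at an epithelium anchor and at no fiber or ES cell anchor, with a fiber peak 4.32 kb away. In contrast, the members near Med7, a subunit of the Mediator complex (fold 9.27, 162 kb from a fiber peak), and in Nubp1, a factor of iron-sulfur protein assembly (fold 9.24, 17.4 kb from a fiber peak), were at anchors of all 3 lists. The member nearest to Npas2, a circadian transcription factor, had a fold of 9.66 and was at an ES cell anchor alone.

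The 10 genes with most members were long, from 249 to 2751 kb. Of 35621 genes of at least 1 kb, 2015 held a member, 265 held 2 or more and 28 held 4 or more. The most were in Igh, the immunoglobulin heavy chain locus of 2751 kb, with 15 members of fold 3.70 to 7.10 beside 9 shared peaks and 15 of the fiber list alone. Tcra, the T cell receptor alpha locus of 1796 kb, held 9 members and 28 shared peaks, so that the classes stood there in another order. Tmem132d, a transmembrane protein gene of 650 kb, held 10 members of fold 3.98 to 6.84, 4 shared peaks of fold 5.69 to 8.77 and no peak of the fiber list alone. Cdh13, a cadherin without a cytoplasmic domain, and Csmd1, a gene for a large complement-control protein, held 8 members and 5 shared peaks each. The other genes of the 10 with most members were 3 overlapping models on chromosome 18 that share the same 9 members, Dnah8 and Osbpl10.

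Per length, Dnah8 and Osbpl10 were the densest of these. Dnah8, which encodes an axonemal dynein heavy chain, held 7 members in 249 kb (2.81 per 100 kb), with folds of 4.43 to 6.20, interleaved with 6 shared peaks of fold 4.22 to 8.98. Osbpl10, which encodes an oxysterol-binding protein, held 7 members in 255 kb (2.75 per 100 kb), with folds of 4.57 to 5.78. The 7 members of Osbpl10 spanned 105 kb from chr9:114992662-114992853 to chr9:115097462-115097653 with no shared peak and 1 peak of the fiber list alone between them, and both shared peaks of the gene, of fold 6.18 and 8.32, lay to the right of them. In Dnah8, by contrast, 4 shared peaks lay between its outermost members.

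Chst8, a sulfotransferase gene, held a member among the 20 of highest fold, and it is described with its surroundings, which were chosen after their values were seen. Its 3 members had folds of 4.53, 8.15 and 9.46 and lay 83.2, 107 and 116 kb from its left end, the end of lower coordinate. Beyond its right end, the noncoding RNA Gm38987 held 3 further members of fold 4.77 to 5.75. These 6 members spanned 81.2 kb, with no shared peak and no peak of the fiber list alone between them. The shared peaks of Chst8 lay to the left of its members.

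**Figure D5:**
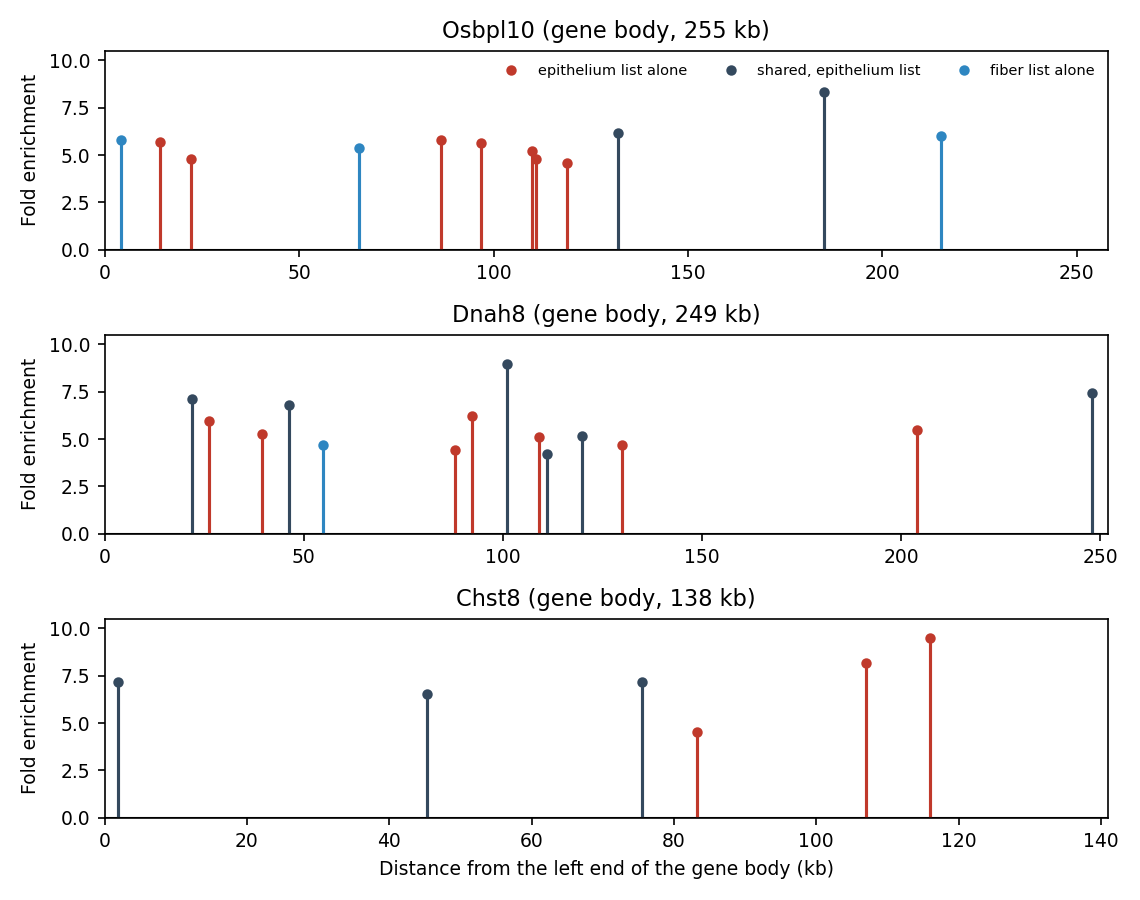
Fold enrichment (y axis) of the CTCF peaks in the gene bodies of Osbpl10, Dnah8 and Chst8 against the distance of the summit from the gene's left end in kb (x axis), with members, shared peaks and peaks of the fiber list alone in separate colours. The 7 members of Osbpl10 lie to the left of both shared peaks, those of Dnah8 are mixed with 6 shared peaks, and the 3 of Chst8 lie to the right of its shared peaks.

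Other stretches with many members within 200 kb were also chosen after their values were seen. The one with most members was chr5:15457861-15651396, at Speer4d and several predicted genes. It held 10 members, 10 shared peaks and 8 of the fiber list alone. Speer genes form a family of close copies, and only reads that mapped to 1 place were kept by the authors, so the counts of peaks there are uncertain. A stretch on chromosome 12 (18190011 to 18359079), at the pseudogene Bnip3l-ps and predicted genes, held 7 members and 1 shared peak. A stretch of 71.0 kb at Sfi1 on chromosome 11 held 6 members, 4 shared peaks and no peak of the fiber list alone. These 6 members were weak, with a highest fold of 2.39 beside a median of 5.07 over all members. The cause of their low folds was not tested, so this count of peaks is uncertain too.

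Of the 2015 genes with a member, 1174 (58.3%) held no shared peak, and of all 35621 genes 86.1% held none. Of the 1174, 11 had 3 or more members, and those named here were chosen after their values were seen. Kcnab1 held 4 members of fold 4.89 to 9.31 and Lhfpl3 4 of fold 4.55 to 6.59, each with 1 peak of the fiber list alone. Grin2b, a subunit of the NMDA receptor, held 3 members of fold 5.17 to 8.19 in 81.0 kb, and Esr1, the estrogen receptor alpha gene, 3 of fold 3.76 to 6.21. These genes are named as a description.

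Of the 152 members near a gene end, 31 were also at an epithelium anchor and 73 lay at a protein-coding gene. Among all 4242 members, 616 were at such an anchor. The same counts for shared peaks near gene ends are not given, so these counts describe members only. The highest of the 31 was near Gdap10, a noncoding RNA, with a fold of 7.05 and its summit 224 bp from the gene's end, at an anchor of 1 loop of 190 kb that was in neither other list. At protein-coding genes, the member 461 bp from an end of Synpo2l, an actin-associated muscle protein gene, had a fold of 5.65 and sat at a loop of 80.0 kb matched in both other lists. The member 461 bp from an end of Ercc1, a DNA repair nuclease subunit gene, had a fold of 5.32 and sat at a loop of 40.0 kb that was also matched in both. These members were 2.39 and 0.546 kb from a fiber peak. The member 15 bp from an end of Cd101, a gene for an immunoglobulin-like surface protein, sat at a loop of 825 kb matched in the fiber list alone. The loops at Ten1, a telomere factor (250 kb), and Slc9a4, a sodium-proton exchanger (175 kb), were matched in neither list. A member of fold 5.06 lay 183 bp from an end of Lyl1 and 179 bp from an end of Nfix, both transcription factor genes, at a loop of 110 kb that was matched in ES cells alone.

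Lens genes were described by counts, with 10 kb added on either side of each gene. Of all 20661 protein-coding genes, 11.6% had a member, 32.8% a shared peak and 37.4% a peak of the fiber list alone. Among 30 genes of lens epithelium, 6 had a member (20%), 17 a shared peak and 14 a peak of the fiber list alone (46.7%). These genes were longer, with a median of 36.7 kb against 17.5 kb. Among 25 genes of lens fiber cells, 4 had a member (16.0%), 14 a shared peak and 15 a peak of the fiber list alone. The lists are short, genes differ in length, and a few genes make up each count.

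The epithelium genes with a member were Cdh1 (E-cadherin), Jag1 (a Notch ligand), Notch2 (its receptor), Pdgfra (a growth factor receptor), Col4a2 (a basement membrane collagen of the lens capsule) and Itgb1 (an integrin subunit). Cdh1 held a member of fold 5.78 (chr8:106657895-106658100) only 0.0550 kb from a fiber peak, and another of fold 5.67 lay 4.89 kb outside it. Notch2 held 1 member of fold 4.60, 128 kb from a fiber peak, and had no other lens CTCF peak. The member in Jag1 (fold 4.76) and that in Itgb1 (fold 4.58) were at an epithelium anchor, and the member in Pdgfra had the lowest fold of the list, 3.21.

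Among fiber genes, a member lay in Bfsp1 (fold 5.94) and in Bfsp2 (fold 5.42), which encode the beaded filament proteins of fiber cells, 28.2 and 10.2 kb from a fiber peak. A member of fold 6.46 lay 8.29 kb from Prox1, a homeodomain factor of fiber differentiation, at an epithelium anchor and 62.6 kb from a fiber peak. Near Bnip3l, a mitophagy receptor gene, the member had a fold of 4.87. Of 16 crystallin genes, 1 had a member, Crybb2 (fold 4.96, at an epithelium anchor), while 5 had a shared peak and 11 a peak of the fiber list alone. Of 14 genes of CTCF and the cohesin machinery found, 1 had a member, Nipbl, the cohesin loader (fold 4.89). Of 19 imprinted genes at loci known for CTCF found, 2 had a member, Plagl1 (fold 7.08, in the gene body) and Rasgrf1 (fold 6.62, 0.942 kb outside it).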

How the data were processed

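CTCF ChIP-seq (75-base single-end reads) and Hi-C of mouse lens were processed by the authors with BWA, MACS2 and Juicer (mm10, per the labels). Per peak, the authors deposited a score, a fold ratio over background, a −log10 p-value and a −log10 q-value. For Hi-C loops, the authors deposited the contact count, the expected signal and FDR p-values, and for TADs positions only. Replicates were merged in the Hi-C lists. Peak scores and FDR values served for alternatives or not at all.

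Overlaps needed 1 bp, and genes, loops and TADs were those of chromosomes 1 to 19. Shares have Wilson intervals, ratios Katz intervals and medians order-statistic intervals, all at 95%. No p-value was computed, since each cell type had 1 peak list. Genes and promoters came from RefSeq (GRCm38.p6). Python 3.11.15, numpy 2.4.6, pandas 2.3.3, scipy 1.17.1 and matplotlib 3.10.9 were used, and 9 of 9 checks on simulated peaks gave the known answer. Genes were named when they held or lay nearest to the 20 members of highest fold, were among the 10 with most members, had a member within 500 bp of an end and at an epithelium anchor (up to 20 by fold) or in a promoter window (up to 10), or were on a lens, crystallin, cohesin or imprinting list. Outside this rule, genes in stretches with many members, and genes with members but no shared peak, were picked with their values known. The members and lists were chosen with earlier results of these data known. Methylation, expression, compartments and read coverage were not analysed here. Alternatives changed the overlap rule, thresholds, anchors, TAD ends, genes and chromosomes.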

Additional observations from a re-analysis of the deposited data

How the results depend on the processing

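Of 85 values recomputed under the alternatives, 63 stayed within the interval of the value given (or, for the number of members, within 1.5 times), 22 moved out of it and none changed the side of 1 on which a ratio lay. Over all alternatives the ratio of members to shared peaks was 0.261 to 0.444 at epithelium anchors, 0.351 to 0.535 at TAD ends, 0.932 to 0.997 in gene bodies and 0.345 to 0.669 near gene ends.

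Among the stronger 50% of the epithelium list, members numbered 1031 and had a median fold of 6.39, and with −log10 q above 3 the median fold was 5.18, since both settings drop weak peaks. The share within 10 kb of a fiber peak was 33.0% with reciprocal overlap of 50%, 34.3% with summits within 100 bp, and 23.3% when fiber peaks had to be over 1 kb away. Peaks added as members by the overlap and summit rules overlap a fiber peak, and those dropped by the 1 kb rule lay near one. The direction of these moves was thus set by the rules and is no finding. The distance limits of 5 and 25 kb gave 14.6 and 48.5%, also a direction set in advance. The anchor ratio was 0.444 with reciprocal overlap, 0.424 with summits, 0.439 with anchors widened by 5 kb and 0.261 with anchors of 5 and 10 kb only. The TAD end ratio was 0.519, 0.393 and 0.351 in strata 1, 2 and 4 by fold, 0.535 with ends within 25 kb and 0.514 with the ES cell TADs. The gene body ratio was 0.944 in stratum 3 and 0.932 with bodies widened by 2 kb, which takes in gene ends. The gene end ratio was 0.345 in stratum 4, 0.669 within 2 kb and 0.364 for protein-coding genes. For ratios moved by a change of overlap rule, stratum or list, the cause was not tested.

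No paired analysis was possible because each cell type has 1 peak list, the Hi-C replicates were merged by the authors and no result came from a test. Replicates were not left out for the same reason. The unknown read depth of both peak lists limits what absence from the fiber list means.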

Other observations

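Outside chromosomes 1 to 19, 218 of 575 epithelium peaks on the X chromosome were in the epithelium list alone (37.9%), with a median fold of 5.30 against 6.92 for the shared X peaks. On the Y chromosome 15 of 54 were alone, and of the 5 mitochondrial peaks 2 were alone. The sex of the pooled newborns is not given in the sources used here.

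Large gene families differed in how often a gene, with 10 kb on either side, had a member. A member was found at 19 of 1104 olfactory receptor genes (1.72%), 6 of 354 vomeronasal receptor genes (1.69%) and 40 of 391 genes with a Zfp symbol (10.2%), beside 11.6% of all protein-coding genes. The receptor genes are short, with medians of 0.950 and 0.962 kb, and their shares of genes with a shared peak were 3.71 and 1.98%.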
